A study of Mus musculus with 4 samples.

Results

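The 6 genes below were followed through the single-cell libraries of mouse mammary organoids: the inhibitor of differentiation genes Id1, Id2, Id3 and Id4, and the inhibitory SMAD genes Smad6 and Smad7. They were chosen by name, as 6 of the 32285 genes listed, and all 6 were detected in each of the 4 libraries. Organoids were grown in Matrigel from single mammary cells of virgin female mice that carried a germline truncating Brca2 allele in the heterozygous state (Brca2mut/WT) or of wild-type littermates. Each genotype was kept as a control culture or was exposed in each passage to hydroxyurea (HU), which stalls replication forks, with recovery after each exposure. Organoids taken at an early passage had fewer exposures than those taken later. There was 1 library per condition, and 4 antibody tags marked the samples pooled in it. The labels give 2 replicates per library and name no tag, and organoids frozen at an early and at a later passage went into the libraries, so mouse and passage could not be separated. After a filter of 1000 to 6000 genes and under 5% mitochondrial UMIs, 17360 of 33268 cells remained.

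Id proteins are helix-loop-helix proteins without a DNA-binding region. They bind E proteins such as those encoded by Tcf3, Tcf4 and Tcf12 and keep them from their target genes. Bone morphogenetic proteins (BMPs) signal through SMAD proteins that enter the nucleus and switch on Id genes, together with Smad6 and Smad7, whose products then damp the pathway. In the mammary gland Id4 is known from the basal layer and Id2 from the luminal cells that go on to make milk.

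Id1 (ENSMUSG00000042745) lies on the plus strand of chromosome 2 at 152736251 to 152737410 in GRCm38. Id2 (ENSMUSG00000020644) lies on the minus strand of chromosome 12 at 25093799 to 25097140, and Id3 (ENSMUSG00000007872) on the plus strand of chromosome 4 at 136143497 to 136145755. Id4 (ENSMUSG00000021379) lies on the plus strand of chromosome 13 at 48261228 to 48266026, where its start overlaps A330033J07Rik and Gm49291 on the other strand. Smad6 (ENSMUSG00000036867) spans 63953076 to 64022059 on the minus strand of chromosome 9, and Smad7 is ENSMUSG00000025880. Reference windows of the 250 bases before the RefSeq start site were found for 4 of the 6 genes. The RefSeq starts of Id2 and Id3 lie inside the spans given above, which come from another annotation (GENCODE), so their windows overlap those spans. Those of the 3 Id genes that each marked 1 lineage below are printed 5′ to 3′ with GGCGCC (a GC-rich SMAD element) and CCAAT (the CCAAT box) in capitals, on either strand.
Id2 (chr12:25096093-25096342, minus strand, GRCm38.p6): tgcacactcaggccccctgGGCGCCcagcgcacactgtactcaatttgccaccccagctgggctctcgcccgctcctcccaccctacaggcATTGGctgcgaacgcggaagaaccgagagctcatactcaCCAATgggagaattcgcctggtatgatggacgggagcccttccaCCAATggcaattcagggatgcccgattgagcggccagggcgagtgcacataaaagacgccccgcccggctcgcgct
Id3 (chr4:136143572-136143821, plus strand, GRCm38.p6): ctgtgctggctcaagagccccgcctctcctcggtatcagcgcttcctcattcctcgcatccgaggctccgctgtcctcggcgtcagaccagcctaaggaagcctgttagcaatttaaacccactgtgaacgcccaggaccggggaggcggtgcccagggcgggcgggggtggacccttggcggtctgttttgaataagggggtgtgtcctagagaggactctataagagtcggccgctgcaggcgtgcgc
Id4 (chr13:48260866-48261115, plus strand, GRCm38.p6): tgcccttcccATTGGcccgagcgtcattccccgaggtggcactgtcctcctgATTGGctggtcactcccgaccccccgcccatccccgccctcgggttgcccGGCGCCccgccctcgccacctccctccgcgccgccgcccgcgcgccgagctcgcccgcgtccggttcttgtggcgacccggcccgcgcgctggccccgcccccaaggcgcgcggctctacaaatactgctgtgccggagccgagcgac
GGCGCC occurred 1 time in the Id2 window and 1 time in the Id4 window, and 9.59% of 32851 windows of the same length held it. CCAAT occurred 3 times in the Id2 window and 2 times in the Id4 window, against 33.8% of windows with at least 1. The Id3 window held neither, and held the short SMAD box GTCT 2 times, which 82.9% of windows held. The Smad6 window held GTCT 1 time and neither of the others. The 2 SMAD motifs do not overlap each other, and a match was read only as letters in the window.

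Cells were placed in 3 lineages by marker level in CPM, the UMI count of a gene scaled to a common total per cell or per summed group of cells. Cells with Krt14 at 500 CPM or more were called basal (2217 cells), those with Areg at 300 CPM or more hormone receptor-positive (HR+) luminal (569 cells), and those with both under 300 CPM HR- luminal (14008 cells). Between the thresholds lay 457 cells and 109 cells met both, and both sets were left out. Near the thresholds, 260 basal cells had Krt14 under 750 CPM, 599 HR- cells had Krt14 of 200 CPM or more, 74 HR+ cells had Areg under 450 CPM and 70 HR- cells had Areg of 200 CPM or more. Markers that the thresholds did not use went with the names. Trp63, the basal transcription factor, averaged 64.9 CPM in basal cells and 9.40 CPM in HR- cells, Prlr, the prolactin receptor, averaged 1126 CPM in HR+ cells and 85.3 to 92.5 CPM in HR- cells, and Elf5, the alveolar luminal factor, averaged 111 CPM in HR- cells and at most 12.8 CPM in the others. Summed endothelial and immune markers stayed at or under 2.13 CPM and 0.702 CPM in each lineage and library. In HR+ cells the stromal list summed to 703 to 1661 CPM, of which nearly the whole was Dcn, while Col1a1, Col3a1 and Pdgfra were each under 1 CPM there.

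Libraries held 7639 to 9358 cells and 243430259 to 302135155 gene UMIs before the filter. Pairs of libraries shared 16 to 30 cell barcodes. Brca2 itself was low in each library, at 5.3 CPM and 5.5 CPM in the wild-type control and HU libraries and 4.3 CPM and 3.9 CPM in the Brca2mut/WT ones, and a 3′ count does not read the truncated allele. In the text below, 4 values in a row are always in the order wild-type control, wild-type HU, Brca2mut/WT control, Brca2mut/WT HU.

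Id4 marked basal cells. Its level there was 316, 428, 304 and 254 CPM, against 7.2, 9.1, 5.9 and 8.3 CPM in HR- cells and 4.5, 13.4, 1.3 and 5.1 CPM in HR+ cells. All 4 basal sums lay far above every luminal sum. Over the 4 libraries the log2 ratio of basal to HR- cells was 5.41 ± 0.33 (SD, n = 4), and edgeR's quasi-likelihood test with the library as a block gave a log2 fold change of 5.28 (adjusted p = 2.81e-09). Against HR+ cells the fold change was 5.79 on the log2 scale (adjusted p = 2.49e-08), and basal Id4 was higher than HR- Id4 in 14 of 14 tag pools with enough cells of both. The 2 luminal classes were not separated by Id4 in the library sums (log2 fold change −0.51, adjusted p = 0.164). Without the wild-type HU library that value was −1.13 (adjusted p = 0.0136). Inside tag pools HR+ Id4, at 0 to 7.59 CPM, was above HR- Id4 in 0 of 5. The milk gene Csn3, which HR- cells express, was counted at 586 to 3446 CPM in basal pools, and the part of RNA from outside the cell in the low luminal Id4 levels was not tested.

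Id2 marked HR- cells. It stood at 281, 358, 344 and 335 CPM there, at 82.7, 137, 83.3 and 90.2 CPM in basal cells and at 65.9, 113, 67.3 and 90.1 CPM in HR+ cells. Each HR- value was more than any basal or HR+ value. The log2 fold change was −1.91 for basal against HR- cells (adjusted p = 2.49e-08) and −2.19 for HR+ against HR- cells (adjusted p = 1.44e-08). In none of 14 pools was basal Id2 above HR- Id2. Basal and HR+ levels overlapped, and their small difference (log2 fold change 0.28, adjusted p = 0.0382) was lost without the library block, at an adjusted p of 0.230.

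Id3 marked HR+ cells. Its HR+ level was 506, 341, 460 and 254 CPM, its basal level 80.6, 30.6, 64.8 and 54.9 CPM and its HR- level 12.7, 26.2, 8.4 and 8.9 CPM. The library sums of the 3 lineages did not overlap for this gene, though the lowest basal sum (30.6 CPM) lay near the highest HR- sum (26.2 CPM). The steps were a log2 fold change of 4.62 for HR+ against HR- cells (adjusted p = 1.79e-06), −2.69 for basal against HR+ cells (adjusted p = 0.00013) and 1.93 for basal against HR- cells (adjusted p = 0.000979). The last step varied most between libraries, with a log2 ratio of 2.11 ± 1.27 (SD, n = 4). It held in 12 of 14 pools, whereas HR+ exceeded HR- in 5 of 5. The exceptions were tags 2 and 4 of the wild-type HU library, at 34.5 and 40.1 CPM in basal and 64.0 and 79.5 CPM in HR- cells. HR+ pools with enough cells came only from tags 2 and 4, while tags 1 and 3 held most tagged HR- cells. The library block does not remove this difference in tags. Within those same pools Id3 was 274 to 586 CPM in HR+ and 20.4 to 88.1 CPM in HR- cells. The part of tags in the lineage values was not tested. A further filter left out cells with 200 CPM or more of summed stromal, endothelial, immune and squamous markers. It gave an HR+ against HR- value of 4.63 (adjusted p = 9.655e-07). HR+ cells themselves summed to 703 to 1661 CPM of the stromal list, so this filter took out HR+ cells as well. It therefore cannot show whether cells of another type carried Id3.

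Smad7 followed the same order as Id3, with a smaller range. It was 82.9, 65.1, 111 and 82.7 CPM in HR+ cells, 49.3, 35.8, 45.9 and 45.9 CPM in basal cells and 23.6, 21.0, 21.3 and 19.9 CPM in HR- cells. Again the library sums did not overlap between lineages. The log2 fold changes were 1.79 for HR+ against HR- cells (adjusted p = 1.68e-07), 0.90 for basal against HR- cells (adjusted p = 2.74e-05) and −0.89 for basal against HR+ cells (adjusted p = 8.88e-05). The order basal above HR- held in 14 of 14 pools. Smad6, by contrast, was scarce, between 3.3 and 6.9 CPM in all 12 sums. It was lower in HR+ than in HR- cells (log2 fold change −0.61, adjusted p = 0.0109) and lower than in basal cells (0.67 for basal against HR+, adjusted p = 0.0111). The first of these calls was lost when library totals replaced TMM scaling (adjusted p = 0.0564), and both were lost without cells that carried markers of another type (adjusted p = 0.211 and 0.264). That filter also took out HR+ cells, by Dcn, and basal cells, by squamous markers (307 to 408 CPM summed in basal cells). The part of lost cells in these values was not tested. Basal and HR- Smad6 gave a log2 fold change of 0.06 (adjusted p = 0.961).

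By the test, Id1 did not separate the lineages in the sums of all 4 libraries. It was 41.0, 28.5, 53.8 and 42.1 CPM in basal cells, 33.2, 14.4, 39.6 and 26.7 CPM in HR+ cells and 28.8, 81.8, 29.7 and 28.6 CPM in HR- cells. The wild-type HU library stood apart, with the lowest basal and HR+ values and the highest HR- value of the 4. The basal against HR- log2 fold change was −0.11 (adjusted p = 0.819), and it was 0.51 (adjusted p = 0.00216) without that library. Basal against HR+ Id1 was 0.58 (adjusted p = 0.292) with all libraries and 0.50 (adjusted p = 0.00915) without it, while HR+ against HR- Id1 was −0.69 (adjusted p = 0.181). The basal sum was above the HR+ sum in 4 of 4 libraries, with a log2 ratio of 0.60 ± 0.29 (SD, n = 4). All lineages were in 1 fit, so the spread of HR- Id1 also enters the p-value for basal against HR+ cells. Inside tag pools HR+ Id1 was above HR- Id1 in 0 of 5. Basal Id1 was above HR- Id1 in 9 of 14 and above HR+ Id1 in 4 of 5.

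**Figure D1:**
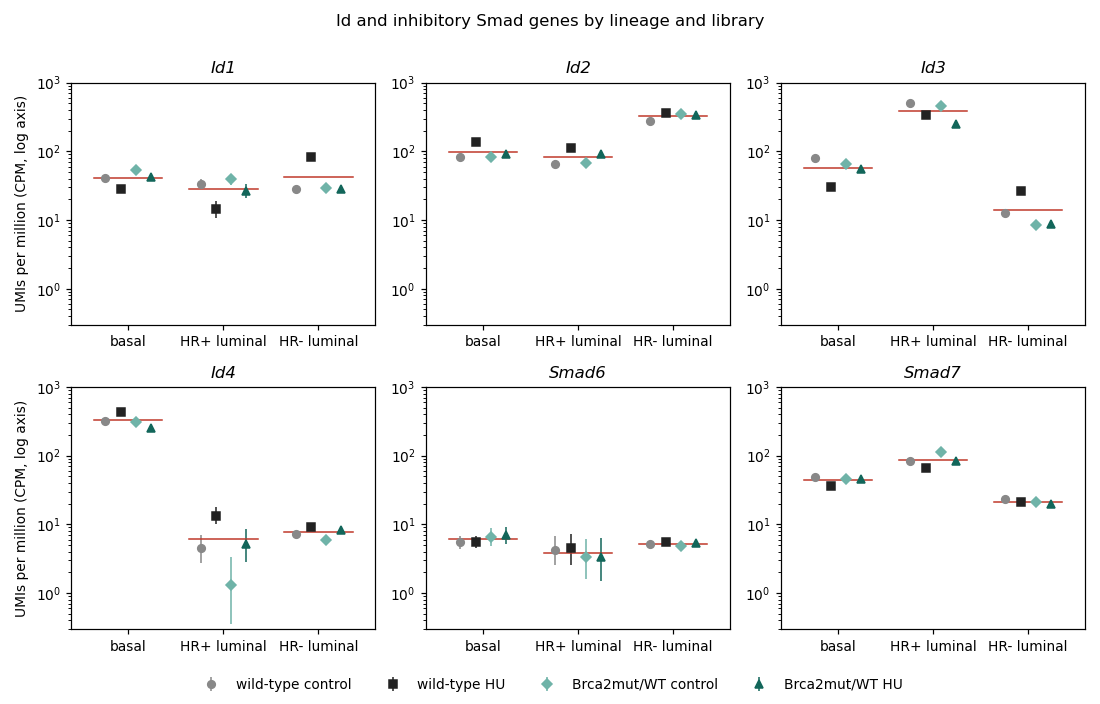
Level of each gene in CPM (log axis) in basal, HR+ luminal and HR- luminal cells, with 1 point per library, a line at the mean of the 4 libraries and 95% Poisson intervals that cover counting error only. Id4 is highest in basal cells, Id2 in HR- cells and Id3 and Smad7 in HR+ cells in all 4 libraries, while the Id1 points overlap.

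Lineage differences were common among genes at large. Of 13251 genes tested, 65.7% passed for basal against HR- cells, 65.4% for HR+ against HR- cells and 54.0% for basal against HR+ cells, and 4, 4 and 5 of the 6 Id and SMAD genes did so. Such counts show nothing particular to the 6 genes. The share of all genes whose library sums did not overlap between lineages was not counted, so the lack of overlap given above is a description only. A called change of 4-fold or more was found for 11.1% of genes in basal against HR- cells, where Id4 had one, for 13.5% in HR+ against HR- cells, where Id2 and Id3 had one, and for 9.54% in basal against HR+ cells, where Id3 and Id4 had one. By absolute log2 fold change Id4 lay at percentile 99.2 for basal against HR- cells and Id3 at percentile 97.5 for HR+ against HR- cells. Scaling by library totals in place of TMM raised the share of calls that were higher in the first-named lineage from 49.3% to 60.4% for basal against HR- cells and from 47.8% to 61.0% for HR+ against HR- cells, with a shift of the median gene by 0.13 and 0.19. Id2, Id3, Id4 and Smad7 kept the directions given above under that scaling.

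Within a lineage the genes were spread over cells to different degrees. The 10% of HR- cells with the highest Id1 level held 70.5% to 81.6% of its HR- UMIs in a library, and for Id3 it held 92.6% to 100%. For Id2 the top 10% held 29.5% to 32.5%, and the median HR- cell had 190 to 267 CPM. Id4 in basal cells and Id3 in HR+ cells were broad as well, with 30.7% to 45.4% and 30.7% to 44.0% in the top 10%. Id1 was at 0 in the median cell of each lineage. These are shares of UMIs, and a cell with 0 UMIs of a scarce gene may still express it. A low level itself raises the share, since few cells then hold any UMI. In HR- cells the also scarce Id4 and Smad6 gave 84.3% to 100% and 83.0% to 95.9%, and Smad7 gave 48.7% to 52.6%. The Id3 share is therefore not particular to Id3.

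The wider BMP pathway was read from a list of 60 genes, of which 43 passed the filter on low counts. Basal against HR- cells gave 23 higher, 14 lower and 6 not passed, with a median log2 fold change of 0.31 against −0.01 over all genes tested. For HR+ against HR- cells there were 14 higher and 13 lower (median 0.02 against −0.05), and for basal against HR+ cells 19 higher and 9 lower (median 0.19 against 0.04).

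Ligands differed between the lineages. Of 3 BMP ligands tested, Bmp7 was mostly basal, at a mean of 23.3 CPM against 3.14 CPM in HR+ and 1.92 CPM in HR- cells (basal against HR- log2 fold change 3.45, adjusted p = 1.27e-08). Bmp3 and Bmp2 were mostly in HR+ cells, at means of 26.0 CPM and 11.7 CPM, against 0.191 CPM and 0.271 CPM in HR- cells (log2 fold changes 6.90 and 5.13, adjusted p = 8.97e-09 and 2.64e-07). Antagonists outside the cell were led by basal Sostdc1 and Fst, which encode secreted proteins that bind BMPs and activins. Sostdc1 averaged 477 CPM in basal cells and 7.07 CPM in HR- cells (log2 fold change 5.96, adjusted p = 3.52e-09), and Fst averaged 312 CPM and 16.7 CPM (4.09, adjusted p = 4.42e-09). Nbl1, another secreted antagonist, was higher in basal and HR+ cells, at 25.1 CPM and 32.5 CPM, than in HR- cells, at 2.26 CPM.

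Of 8 receptors and co-receptors tested in basal against HR- cells, 2 were higher and 5 lower. Acvr1, a type I BMP receptor, was among the higher ones at 21.3 CPM in basal, 21.1 CPM in HR+ and 6.90 CPM in HR- cells (log2 fold change 1.5, adjusted p = 2.13e-07 for basal against HR- cells). Rgma, a BMP co-receptor, was lower, at 10.6 CPM in basal, 3.70 CPM in HR+ and 15.2 CPM in HR- cells. Among the SMAD transducers Smad1 was higher in basal cells, at 58.1 CPM against 21.2 CPM in HR- cells (1.32, adjusted p = 1.11e-07). Smad4, the common partner, differed by 0.31 (adjusted p = 0.00136), and Smad5 by 0.18 (adjusted p = 0.0594).

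Other known BMP targets did not share 1 order. Msx2, a homeobox gene, averaged 62.5 CPM in HR+ cells, 3.20 CPM in basal cells and 1.07 CPM in HR- cells (HR+ against HR- 5.68, adjusted p = 1.73e-09). Hey1, a bHLH repressor that Notch also drives, had the opposite order, at 107 CPM in HR- cells against 25.2 CPM in basal and 15.9 CPM in HR+ cells (basal against HR- −2.25, adjusted p = 1.39e-08). Among the E protein genes, whose products Id proteins bind, Tcf4 was 72.7 CPM in basal, 61.1 CPM in HR+ and 32.8 CPM in HR- cells, Tcf3 37.4, 43.5 and 21.5 CPM, and Tcf12 49.1, 53.0 and 48.9 CPM. Tcf3 and Tcf4 passed as higher in basal than in HR- cells (log2 fold changes 0.66 and 1.01, adjusted p = 1.92e-06 and 6.66e-07), and Tcf12 did not (−0.13, adjusted p = 0.160).

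Of 15 genes of the TGF-beta and activin arm tested in basal against HR- cells, 9 were higher and 5 lower. Tgfbi, an extracellular matrix gene that TGF-beta induces, averaged 23.6 CPM in basal cells and 0.170 CPM in HR- cells (6.85, adjusted p = 2.23e-09). Inhba, which encodes an activin subunit, was 341, 129, 292 and 137 CPM in HR+ cells and averaged 3.32 CPM in HR- cells (5.93, adjusted p = 2.42e-10). Both HU libraries had lower HR+ Inhba than both controls, in sums of 123 to 176 HR+ cells per library. No test was made of that order, and the share of all genes with it was not counted. Tgfb3 went the other way, with 193 CPM in HR- cells against 51.2 CPM in basal cells (−2.06, adjusted p = 6.15e-08).

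**Figure D2:**
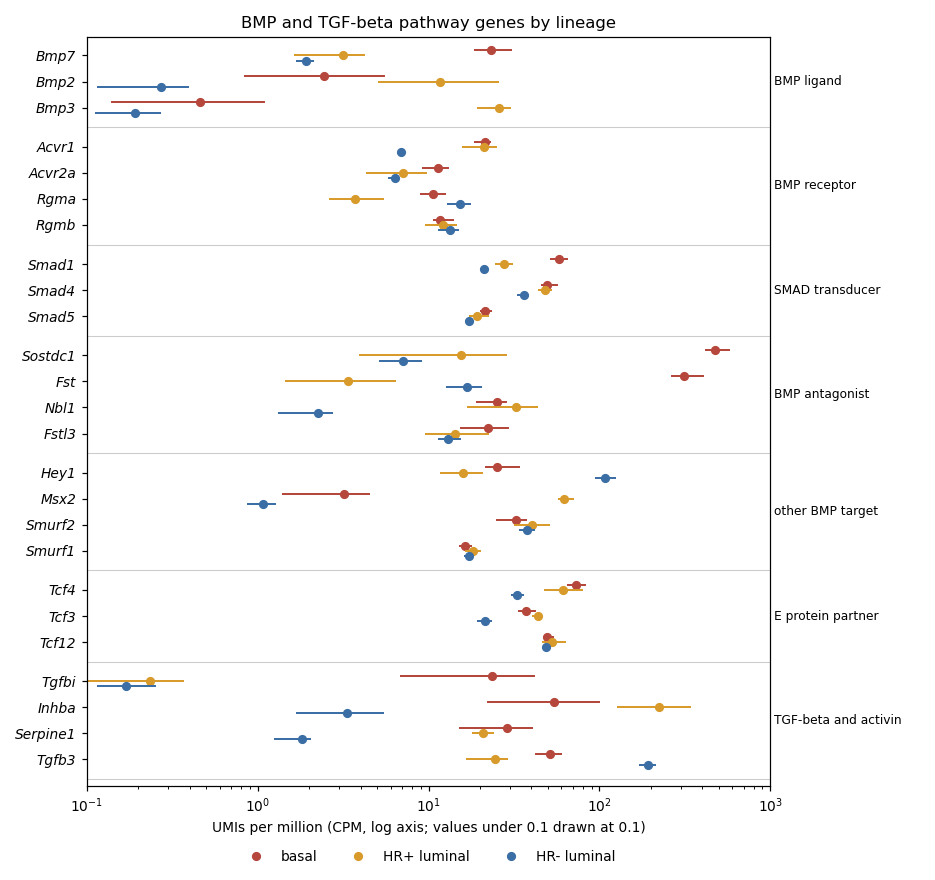
Level in CPM (log axis) of named genes of the BMP list, grouped by role, with a point at the mean of the 4 libraries in each lineage and a line from the lowest to the highest library. Sostdc1, Fst and Bmp7 are highest in basal cells, Bmp2, Bmp3, Msx2 and Inhba in HR+ cells, and Hey1 and Tgfb3 in HR- cells.

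Cycling cells were those with a summed level of Mki67, Top2a, Birc5, Ccnb2 and Cdk1 of 200 CPM or more, 1233 HR- and 360 basal cells. Of these and the rest, 384 HR- and 78 basal cells lay at 150 to under 250 CPM. Id2 was higher in cycling HR- cells, at 438, 488, 526 and 457 CPM against 268, 348, 327 and 326 CPM in non-cycling ones (log2 fold change 0.49, adjusted p = 5.26e-07). Every cycling value was above every non-cycling value, and the share of all genes with such an order was not counted. Id3 was 34.1, 48.6, 7.8 and 12.6 CPM in cycling against 11, 24.4, 8.5 and 8.6 CPM in non-cycling HR- cells (0.84, adjusted p = 0.00125), higher in 3 of 4 libraries. That call was lost with DESeq2 (adjusted p = 0.105) and without the library block (adjusted p = 0.184), and with cells of over 6000 genes kept the value was −0.025 (adjusted p = 0.911). Smad7 fell by 0.24 on the log2 scale (adjusted p = 0.0278), a call lost in 7 alternatives, and Id1, Id4 and Smad6 did not pass. So 3 of the 6 genes were called, where 53.9% of 14122 genes tested were.

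In cycling basal cells Smad7 was lower in 4 of 4 libraries, at 39.4, 28.5, 34.0 and 30.1 CPM against 51.0, 38.1, 47.6 and 48.1 CPM (log2 fold change −0.41, adjusted p = 0.00459). Id1 was 32.5, 21.2, 45.7 and 41.6 CPM against 42.5, 30.7, 55.0 and 42.2 CPM (−0.31, adjusted p = 0.0339), a call lost in 7 alternatives. These 2 of 6 genes compare with 38.4% of 11483 genes tested. In the pathway list lower calls outnumbered higher ones in both lineages, with 4 genes higher and 21 lower of 41 tested in cycling HR- cells (median −0.26 against −0.03 over all genes) and 1 higher and 13 lower of 40 tested in cycling basal cells (median −0.28 against −0.01). Over all genes 49.99% of calls were higher in cycling HR- cells and 57.3% in cycling basal cells, and with library totals these shares were 62.4% and 51.6%.

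Between conditions there was 1 library on each side, so no test was made and only values with exact Poisson intervals are given, which cover counting error. A difference of 1.5-fold or more was counted where either library reached 20 CPM. The 4 contrasts share libraries and are not independent. In HR- cells Id1 was 28.8 CPM in the wild-type control and 81.8 CPM in the wild-type HU library, 2.84-fold higher (log2 ratio 1.51, 95% interval 1.44 to 1.57), and Id3 was 12.7 CPM and 26.2 CPM, 2.06-fold higher (1.04, interval 0.94 to 1.14). The matching Brca2mut/WT pair gave log2 ratios of −0.05 (interval −0.14 to 0.03) for Id1 and 0.07 (interval −0.08 to 0.23) for Id3. The tag pools of that pair were not alike, as given below. In wild-type basal cells the HU library had more Id2 (0.73, interval 0.64 to 0.83) and less Id3 (−1.40, interval −1.54 to −1.26). In wild-type HR+ cells it had less Id1 (−1.20, interval −1.68 to −0.74) and more Id2 (0.78, interval 0.56 to 1.0). Of these, HR+ Id1 gave −0.04 when cells of over 6000 genes were kept, HR+ Id2 gave 0.01 without the pool of tag 4, and basal Id3 gave −0.57 without that pool. Such values use cells with 1 clear tag and leave out the cells of that tag in both libraries.

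In all, 6 of 13 gene and lineage pairs passed 1.5-fold for HU in wild type, where 5.95% of genes did so in basal, 8.83% in HR+ and 1.15% in HR- cells. For HU in Brca2mut/WT 1 of 12 passed, HR+ Id3 (460 to 254 CPM, log2 ratio −0.86, interval −0.99 to −0.73), against 3.27%, 8.46% and 1.04% of genes in basal, HR+ and HR- cells. Wild-type HR+ Id3 (−0.57, interval −0.67 to −0.47) and Brca2mut/WT HR+ Id1 (−0.57, interval −1.01 to −0.13) lay just under 1.5-fold. Brca2mut/WT HR+ Id2 was 0.42, and HR+ Smad7 was −0.35 in wild type and −0.43 in Brca2mut/WT. These HR+ signs were shared by both genotypes, so the counts do not separate the genotypes in HR+ cells. For Brca2mut/WT against wild type none of 12 passed among control libraries, where 3.13%, 6.76% and 0.943% of genes did. HR- Id3 was not counted there because both libraries lay under 20 CPM (8.42 against 12.7 CPM), and its log2 ratio was −0.60 (interval −0.73 to −0.47), itself past 1.5-fold. Among HU libraries 6 of 13 passed, against 6.74%, 6.95% and 0.907% of genes. These were HR- Id1 (−1.52) and Id3 (−1.56), basal Id2 (−0.61), Id3 (0.85) and Id4 (−0.75), and HR+ Id1 (0.89), and the wild-type HU library is the one that this contrast and the first share. Basal Id2 gave −0.07 without the pool of tag 1, basal Id4 −0.26 without that of tag 2 and basal Id3 −0.88 without that of tag 4, and HR+ Id1 gave −0.10 with cells of over 6000 genes kept. HR+ Id4 lay under 20 CPM in each library, on 19, 51, 4 and 14 UMIs, and was not counted in any contrast. Its log2 ratios were past 1.5-fold in all 4, at 1.57 and 1.96 for HU in wild type and Brca2mut/WT. For Brca2mut/WT against wild type they were −1.77 among control and −1.39 among HU libraries. HR- Id3 and HR+ Id1 reached 20 CPM only in the higher library of several pairs, so the counts are descriptions of the pairs and support nothing further.

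**Figure D3:**
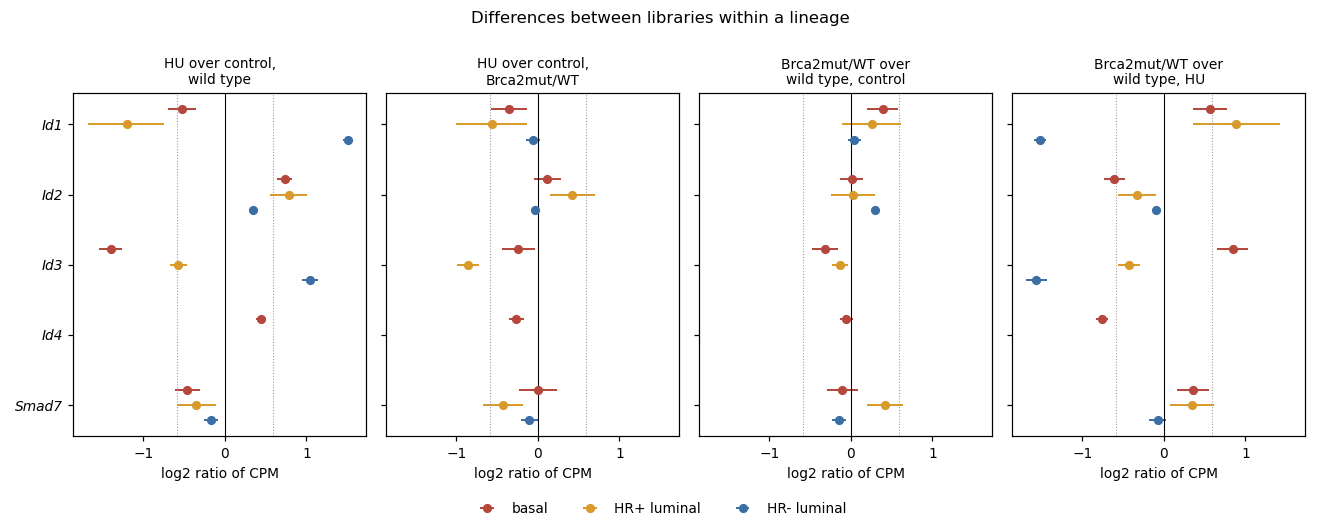
Log2 ratio of CPM between 2 libraries for each gene that reached 20 CPM in a lineage, for HU against control and Brca2mut/WT against wild type, with 95% Poisson intervals that cover counting error only and dotted lines at 1.5-fold. The points of Id1 and Id3 in HR- cells lie above 1 for HU in wild type, and for HU in Brca2mut/WT that of Id1 lies near 0 while Id3 is not drawn, being under 20 CPM.

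Inside the libraries Id1 and Id3 differed between the samples that the tags mark. Cells with 1 clear tag numbered 14791, and pools of under 20 cells were left out, which left 14 basal, 5 HR+ and 16 HR- pools. Their labels are not known, so each value stands alone and pools are not replicates. For tags 1 to 4 in turn, Id1 in HR- cells was 17.2, 36.2, 20.2 and 85.3 CPM in the wild-type control library, 21.4, 207, 21.0 and 287 CPM in the wild-type HU library, 15.0, 6.5, 18.0 and 117 CPM in the Brca2mut/WT control library and 17.9, 16.3, 16.8 and 234 CPM in the Brca2mut/WT HU library. In each library the highest pool was tag 4, and the pool of tag 2 was high in the wild-type HU library as well. The highest pool exceeded the lowest 4.96-fold, 13.7-fold, 18.2-fold and 14.4-fold. Id3 had the same highest pools, at 4.6, 20.4, 4.9 and 52.2 CPM, then 4.2, 64.0, 5.4 and 79.5 CPM, then 3.0, 3.3, 3.4 and 36.5 CPM, and then 3.3, 5.2, 3.3 and 88.1 CPM.

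Those pools were not alike in other respects. The milk protein gene Csn3 in the same HR- pools was 24655, 16306, 21362 and 16341 CPM, then 23202, 11513, 22435 and 8779 CPM, then 21939, 15567, 20648 and 11226 CPM, and then 20429, 15099, 23131 and 5400 CPM, lowest in tag 4 or tag 2. Acta2, a basal contractile gene, was highest in tag 4 in the Brca2mut/WT control and HU libraries, at 98.7 and 394 CPM. For tags 1 to 4 it was 48.1, 5.8, 42.4 and 26.1 CPM in the wild-type control library. In the wild-type HU library it was 43.3, 42.1, 61.7 and 17.4 CPM. The basal marker Krt5 was 8.77 to 34.3 CPM in HR- pools and 1369 to 3791 CPM in basal pools. Elf5 was 84.5, 138, 134 and 126 CPM in the tag 4 pools, within 81.9 to 149 CPM over all HR- pools. HR+ markers differed between HR- pools too. Areg was highest in tag 4 in each library, at 17.3, 12.7, 7.17 and 21.96 CPM. Foxa1 for tags 1 to 4 was 2.64, 27.9, 2.29 and 7.98 CPM in the wild-type control library. It was 1.97, 3.23, 2.09 and 9.57 CPM in the wild-type HU library. In the Brca2mut/WT libraries it was 1.32, 9.15, 2.47 and 2.42 CPM (control) and 1.89, 8.03, 1.48 and 10.55 CPM (HU). Prlr was highest in tag 2 of both control and tag 4 of both HU libraries. Median UMIs per cell were 28879 to 30273 in the pools of tag 4 and 23782 to 29514 in the other pools. The part of these in the Id1 and Id3 values was not tested. Smad7 in HR- pools ranged only from 16.4 to 34.2 CPM, and its highest pool was that of tag 4 in each library. Id2 ranged from 196 to 477 CPM and was likewise highest in the pool of tag 4 in each library, at 347, 466, 477 and 431 CPM.

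The HU difference in wild-type HR- cells depended on the pools. Without the pool of tag 2 from both libraries the Id1 log2 ratio was 0.92, and without the pools of tag 1, 3 or 4 it was 1.62, 1.96 or 1.68. For Id3 the value was 0.31 without tag 2 and 0.97, 1.24 and 1.68 without the others. The Brca2mut/WT against wild type values among HU libraries became −0.74 for Id1 and −0.65 for Id3 without tag 2. The Brca2mut/WT HU and control totals were near each other, but their pools were not alike. Id1 for tags 1 to 4 was 15.0, 6.5, 18.0 and 117.5 CPM in the control and 17.9, 16.3, 16.8 and 233.6 CPM in the HU library. Id3 in tag 4 was 36.5 and 88.1 CPM, against 3.03 to 3.39 and 3.26 to 5.19 CPM in the other tags. The Brca2mut/WT tag 4 pool held 418 HR- cells in the control and 125 in the HU library. In wild type the tag 2 pool held 182 HR- cells in the control and 579 in the HU library. The wild-type tag 4 pool held 393 and 255. The part of pool sizes in the totals was not tested.

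**Figure D4:**
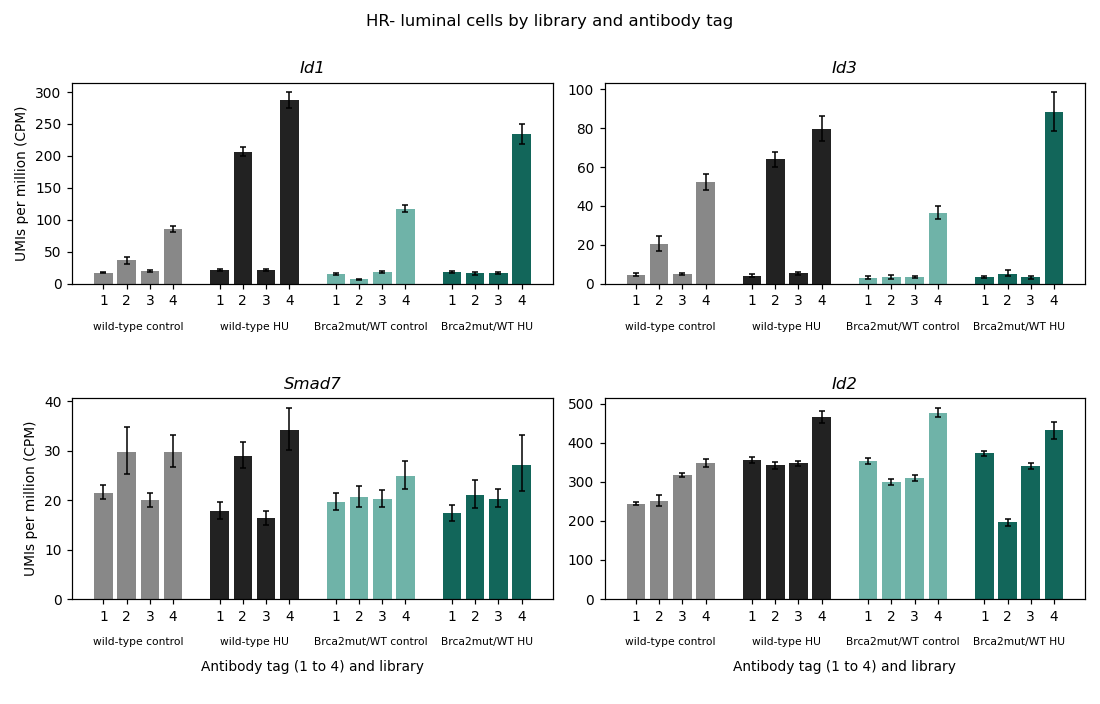
Level in CPM of Id1, Id3, Smad7 and Id2 in HR- luminal cells, with 1 bar per tag pool, tags 1 to 4 side by side in each library, and 95% Poisson intervals that cover counting error only. Id1 and Id3 are highest in the pool of tag 4 in all 4 libraries, and high in that of tag 2 in the wild-type HU library, and Id2 and Smad7, also highest in tag 4, span a narrower range.

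Basal pools spread too. Id4 in basal cells was 235, 304, 142 and 408 CPM in the wild-type control pools and 257, 525, 189 and 382 CPM in the wild-type HU pools. Pools of tags 1, 3 and 4 gave 158, 176 and 483 CPM in the Brca2mut/WT control library and 259, 215 and 282 CPM in the Brca2mut/WT HU library. The lowest of these was still far above the highest HR- pool of Id4, 28.2 CPM. The basal Id4 ratio for HU in wild type was 0.44 with all pools, −0.16 without tag 2 and 0.96 without tag 4. Basal Id3 in the Brca2mut/WT HU library was 19.5, 21.5 and 150 CPM for tags 1, 3 and 4, and without tag 4 the Brca2mut/WT against wild type value among HU libraries was −0.88 in place of 0.85.

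The measure used for all genes was a spread of 2-fold or more between pools, where the highest pool reached 20 CPM. It held for 18.9% and 11.3% of genes in the basal pools of the wild-type control and HU libraries. In HR- pools it held for 10.5%, 5.66%, 13.6% and 16.8% of genes in the 4 libraries. Id1 and Id3 were among them in the HR- pools of all 4 libraries, Smad7 in those of the wild-type HU library, and Id2 and Id4 in those of the Brca2mut/WT HU library. In basal pools these were Id3 and Id4 in the wild-type control library and Id2 and Id4 in the wild-type HU library. HR- Id3 reached 20 CPM only in pools of tag 2 or 4, and HR- Id1 of the Brca2mut/WT libraries only in those of tag 4. They entered the count through the pools where they were high, so it is a description and supports nothing further.

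Id3 was higher in HR- cells with a high Id1 level than in the others. HR- cells were divided at an Id1 level of 150 CPM, and all other genes were then read in both sets, with no test since cells of 1 library share their source. Cells at or above the division made up 5.27%, 12.6%, 4.57% and 4.69% of HR- cells, which were 222, 437, 164 and 129 cells. In them Id3 was 99.7 CPM against 8.27 CPM in the rest in the wild-type control library, 125 against 10.2 CPM in the wild-type HU library, 95.9 against 4.21 CPM in the Brca2mut/WT control library and 99.97 against 5.10 CPM in the Brca2mut/WT HU library. The log2 ratios were 3.59, 3.62, 4.51 and 4.29, and by this ratio Id3 ranked 1, 1, 2 and 2 among the 5448 to 5673 genes read in a library. These values and ranks pool tags whose Id1 and Id3 levels and shares of Id1-high cells differ. Smad7 was also higher in the Id1-high cells, by log2 ratios of 0.79, 1.01, 1.0 and 1.05. Median UMIs per cell of the Id1-high cells and the rest were 24361 and 24730, 29234 and 24394, 26020 and 24954, and 23563 and 27747. With the division at 100 or 300 CPM, or with cells of at least 10000 UMIs, the Id3 log2 ratios were 3.21 to 4.43, 3.50 to 3.71, 4.14 to 4.84 and 3.80 to 5.10.

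Inside single pools the ratios were lower in the wild-type pools of tags 1 and 3 than in the others. In 12 HR- pools with enough Id1-high cells, Id3 was higher in the Id1-high cells in 12, by log2 ratios of 0.97 to 4.04, and the counting interval lay above 0 in 11. For tags 1 and 3 the log2 ratios were 1.13 and 1.23 in the wild-type control library, with ranks of 144 and 120, and 0.97 and 1.54 in the wild-type HU library, with ranks of 206 and 116. In these 4 pools Id3 was 7.90 to 15.0 CPM in the Id1-high cells and 4.03 to 5.15 CPM in the rest, and with 35 to 48 Id1-high cells in a pool most Id3 UMIs lay outside them. In the other 8 pools the ratio was 2.46 to 4.04 and the rank 1 to 7. Among these, tags 1 and 3 of the Brca2mut/WT control and tag 1 of the Brca2mut/WT HU library had only 21, 22 and 25 Id1-high cells. Id3 was 38.3, 22.2 and 16.4 CPM in those cells, and most Id3 UMIs of these pools lay outside them too. The highest ratio, 4.04, was that of the pool with 21 such cells. What the pools hold in cell types was not tested. Smad7 was higher in 12 of 12 as well, by 0.43 to 1.34, with the interval above 0 in 10. Id2 was higher in 6 pools and lower in 6, from −1.45 to 0.89, and the interval excluded 0 in each. The lower ones were tags 1 and 3 of the wild-type control, wild-type HU and Brca2mut/WT control libraries. The share of Id1-high cells in a pool was 47.5% for tag 4 and 34.9% for tag 2 of the wild-type HU library, 35.2% and 20.1% for tag 4 of the Brca2mut/WT HU and control libraries and 18.6% for tag 4 of the wild-type control library. In the others it was 2.08% to 3.52%. In basal cells the same division gave Id3 log2 ratios of 1.33, 2.92, 2.11 and 3.16, and Id4 was lower in the Id1-high basal cells, at −1.10, −0.90, −0.55 and −1.29. In HR- cells Id4 went the other way over all tags, with log2 ratios of 0.41, 0.77, 1.01 and 1.81 by library. These values pool tags whose Id4 levels and shares of Id1-high cells differ. Inside single pools Id4 was higher in 10 of 12, of which 2, both of the wild-type HU library, had an interval above 0. In the Brca2mut/WT HU library tags 1 and 4 gave 0.27 (interval −1.37 to 1.52) and 0.32 (interval −0.29 to 0.92). The basal values rest on 50, 44, 31 and 34 Id1-high cells and were read over all tags, between which basal Id4 differed. The part of tags in the basal values and in the HR- values over all tags was not tested.

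**Figure D5:**
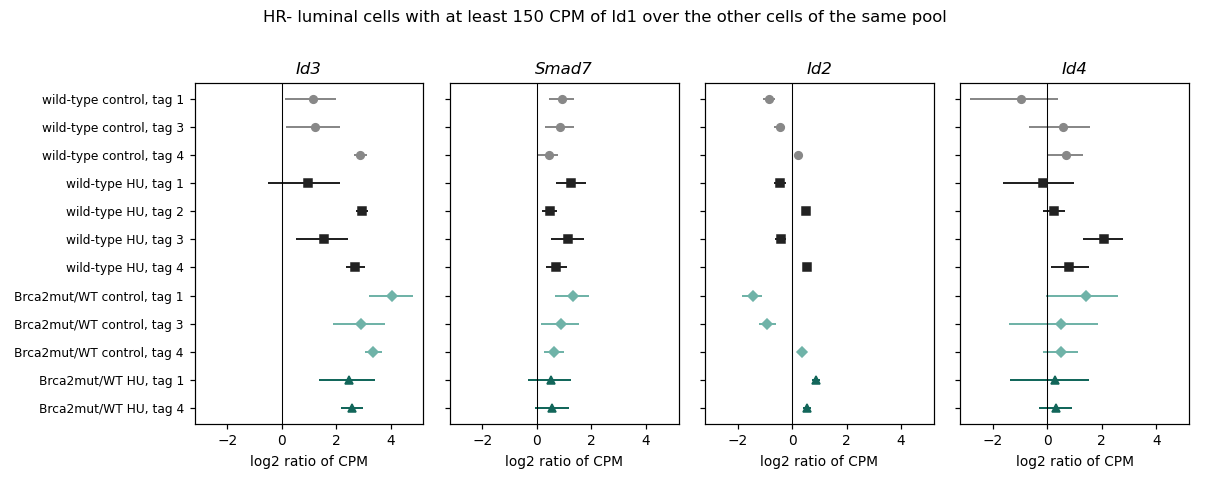
Log2 ratio of CPM between HR- cells with Id1 at 150 CPM or more and the other HR- cells of the same tag pool, for Id3, Smad7, Id2 and Id4, with 95% Poisson intervals that cover counting error only. Id3 lies between 0.97 and 4.04 and Smad7 between 0.43 and 1.34 in the 12 pools, and the Id2 values fall on both sides of 0.

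Genes with the most similar pattern were named by Pearson's r of log2(CPM + 1) over the 35 pools of all lineages, among 5713 genes. The points share libraries and depth, and lineage alone can give a high r, so r is a description. Id4 was nearest to Pdpn (0.967), Col17a1 (0.962) and Wnt10a (0.958). Id2 was nearest to Pradc1 (0.945), Smim10l1 (0.943) and Cul1 (0.939). Id3 was nearest to Gadd45b (0.915), Psmd8 (0.914) and Anxa3 (0.913), and Smad7 to Vmp1 (0.940), Ptpn1 (0.940) and Ktn1 (0.935). Id1 had no gene above 0.658 (Hmox1), followed by Ucp2 (0.654) and Spp1 (0.645), and the closest genes to Smad6 were Oxa1l (0.747), Sash1 (0.741) and Slc3a2 (0.739).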

How the data were processed

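Mammary organoid cells were measured by 3′ single-cell RNA-seq with antibody tags. The matrices, deposited by the authors, hold UMI counts per gene and cell, filtered to cells but not normalized. The submitters' processing notes name Cell Ranger 6.0.2 and mm10, while the matrix headers name 6.1.1. The study's own cell limits were applied (a mitochondrial share below 5%, between 1000 and 6000 genes detected), and cells with more than 1 tag were dropped only where tag pools were used (1 tag with at least 80% of at least 50 tag UMIs). The limits kept 17360 of 33268 cells here. The paper reports more cells than either number after these limits, and the reason was not found. No doublet caller was run. Counts were summed per library and lineage and fitted with edgeR 4.0.16 (quasi-likelihood test, TMM, filterByExpr, library as block, 12 sums for lineages and 8 for cycling cells) in R 4.3.3, with Benjamini-Hochberg adjustment over all genes tested and 0.05 as the threshold. With 1 library per condition, conditions were compared by log2 ratios of CPM with exact 95% Poisson intervals. Libraries differ in genotype and treatment, so p-values for lineages measure the spread of these 4 libraries. The lineages also differed in the tags they came from, which the library block does not remove.

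The genes named were the 6 chosen by name, the genes of the BMP list and the 3 genes with the highest r to each of the 6. Members and lists were chosen with earlier results of these data known. On simulated data for basal against HR- cells, 89 of 99 genes raised 2-fold and 79 of 98 lowered 2-fold were called, as were 14 of 12823 unchanged ones. The simulation changed only these few genes, in near balance, and put in no library effect. In the data 65.7% of genes were called, so the simulation gives no false-call rate for the lineage tests. Alternatives were DESeq2 1.42.0, other scaling, cell filters and lineage thresholds, no library block, and leaving out each library or tag pool. Promoter windows came from RefSeq (GRCm38.p6) and gene positions from GENCODE (GRCm38).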

Additional observations from a re-analysis of the deposited data

Results flagged for a closer look

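Id1 and Id3 had opposite signs in different lineages under the same contrast. With 1 library per condition these are values only, and the difference between lineages was not tested. For HU in wild type, the log2 ratio of Id1 was −1.20 in HR+ cells and 1.51 in HR- cells, and that of Id3 was −1.40 in basal cells and 1.04 in HR- cells. For Brca2mut/WT against wild type among HU libraries, Id1 was 0.89 in HR+ cells and −1.52 in HR- cells, and Id3 was 0.85 in basal cells and −1.56 in HR- cells. With cells of over 6000 genes kept, HR+ Id1 was −0.04 in the first contrast and −0.10 in the second, so that in the second its sign was no longer opposite to that in HR- cells. Both contrasts contain the wild-type HU library, so the second pair is not independent of the first. The HR+ Id1 values rest on few counts (33.2 and 14.4 CPM in wild type) and the basal Id3 value of 0.85 was −0.88 without the pool of tag 4.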

How the results depend on the processing

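Counts of the 6 genes called for basal against HR- cells and HR+ against HR- cells stayed within 1.5 times under every alternative run. For basal against HR+ cells 5 became 3 without cells with markers of another type (3 to 6 on leaving out 1 library, 3 without the Brca2mut/WT control or the Brca2mut/WT HU library). The filter on markers of another type also took out HR+ and basal cells that carry such markers themselves. The part of lost cells in its results was not tested. For cycling HR- cells 3 became 1 with DESeq2 (2 to 3 on leaving out 1 library). For cycling basal cells 2 became 1 with DESeq2, with stricter lineage thresholds and without cells with markers of another type (1 to 2 on leaving out 1 library, 1 without either wild-type library). The library block was in the test as designed: without it the cycling counts became 1 in HR- and 1 in basal cells. Of pairs past 1.5-fold, HU in Brca2mut/WT went from 1 to 2 with cells of at least 10000 UMIs and to 2 with TMM scaling, and Brca2mut/WT against wild type in control libraries from 0 to 1 without cells with markers of another type. Signs turned for basal against HR- Id1 (−0.37 to 0.51 on leaving out 1 library, 0.51 without wild-type HU), HR+ against HR- Id1 (up to 0.01), HU in wild type for HR+ Id3 (0.26 without tag pool 4) and basal Id4 (−0.16 without tag pool 2), and, with cells of over 6000 genes kept, for cycling HR- Id1 (−0.33, adjusted p = 0.0075) and Id3 (−0.025), cycling basal Id4 (−0.24, and −0.24 with a cycling threshold of 400 CPM) and HR+ Id1 for Brca2mut/WT against wild type among HU libraries (−0.10). Basal Id3 in that contrast was −0.88 without tag pool 4. Other signs that turned belonged to values that had not passed the test or were not counted as past 1.5-fold. The causes were not tested. HR+ sums without tag pool 4 were not run for 3 contrasts because too few cells remained. The precision of the HR+ values is limited by 123 to 176 cells per library.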
